A study of Mus musculus with 11 samples.

Results

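Mrap, the melanocortin 2 receptor accessory protein gene, was examined together with 8 further genes of melanocortin, adrenergic, cyclic nucleotide and natriuretic peptide signalling. They are Mc2r, Adrb1, Adrb3, Adra2a, Pde3b, Prkaca, Npr3 and Npr1, and they are 9 of the 15453 genes in the deposited tables. They were chosen by gene symbol, from a list drawn up when the normalised tags of these WT and pKO mice and the genotype differences in them were already known, so their genotype differences are given as a description and nothing is read from how many of them differed. The RNA came from epididymal adipose tissue of male C57BL/6 mice, 6 wildtype (WT) and 5 with the inactivated Mest allele inherited from the father (Mest+/-, called pKO), each mouse giving 1 library. All were 16 weeks old and had been fed a high fat diet from 8 weeks of age. Mest is imprinted and expressed from the paternal allele, and the pKO mice lack its exon 3 on that allele in the whole body but still carry an intact maternal allele. The study compared these groups to ask what loss of Mest changes in expanding fat.

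In fat cells, hormones that raise cAMP act through receptors coupled to the stimulatory G protein and adenylyl cyclase, and cAMP activates protein kinase A, which starts the release of stored triglyceride. Noradrenaline does so through beta-adrenergic receptors and is opposed by alpha2-adrenergic receptors, which act through inhibitory G proteins. Corticotropin (ACTH) acts in rodent fat through the melanocortin 2 receptor, which needs the accessory protein MRAP to reach the cell surface and to signal. Natriuretic peptides act in parallel through cGMP.

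Expression was measured by SAGE, in which a short tag next to the last NlaIII site (CATG) before the poly(A) tail is sequenced and counted, so that each transcript gives 1 tag whatever its length and levels of different genes can be compared. The tags below were read from the GENCODE M21 transcripts (GRCm38) and are shown because the measured values rest on them. CATG is in capitals and the rest of the 27-base tag in lower case.
Mrap: CATGgactcacagcttcaacctccctc
Adrb3: CATGttcctccacaaatcactctgtct
Adrb1: CATGtgcaataaagacagcagtgcagc
Npr3: CATGactgtggataaagccctgttttg
Adra2a: CATGaattaagtggg
Each of the 27-base tags was found in the transcripts of 1 gene. The shorter Adra2a tag was not compared with the first bases of longer tags, so whether it belongs to 1 gene was not tested. The Mrap tag lies at chr16:90749260-90749286 on the plus strand, inside the coding part of exon 3 of 3 of the protein-coding transcript, and 3 of the 4 annotated Mrap transcripts share it. The Adrb3 tag lies in the 3′ UTR at chr8:27226041-27226067 on the minus strand. The Adrb1 tag at chr19:56725120-56725146 (plus strand) and the Npr3 tag at chr15:11840083-11840109 (minus strand) also lie in 3′ UTRs. The last NlaIII site of Adra2a is only 15 bases from the annotated end of its transcript, at chr19:54048968-54048982 on the plus strand, so a full-length tag would run past that end. Which annotation the authors counted tags against is not given in the sources used here, so it is not known whether exactly these tags were the ones counted.

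The study also designed a quantitative PCR assay for Mrap, and its oligonucleotides are shown in lower case because their place relative to the tag decides which transcripts each method reads.
Mrap forward primer: tggacgagaagaagctgaaagc
Mrap reverse primer: aaagaggagcaccacgaaggta
Mrap probe: acaagcattccattgtcatcgccctg
The forward primer matched all 4 annotated Mrap transcripts and the reverse primer 3 of 4, while the probe matched the protein-coding transcript alone, at positions 341 to 366. The SAGE tag begins at position 476 of that transcript, 109 bases after the end of the probe. The probe therefore reads 1 of the 3 transcripts that the tag counts together. The others are annotated as subject to nonsense-mediated decay, and how many tags each transcript gave is not known. Quantitative PCR values were not analysed here.

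Libraries held 9659740 to 14825727 tags, and 1 tag was worth 0.836 to 1.19 normalised tags after scaling. Mest, the targeted gene, separated the groups as labelled, since WT mice had 20756 to 27897 normalised tags and pKO mice 793 to 2275 (log2 difference −3.99, SE 0.22, adjusted p = 1.2e-06, limma). These tags count Mest transcripts at an NlaIII site, and where that site lies relative to the deleted exon was not examined here. Markers of fat cells were abundant in every library, with Fabp4 at 655817 ± 145987 among WT mice (SD, n = 6) against 698530 ± 164317 among pKO mice (SD, n = 5). The summed level of the 8 adipocyte markers, which Fabp4 leads, ranged from 679512 to 1086760 in WT and from 727319 to 1095490 in pKO mice. Single markers went both ways. Lep had means of 51503 in WT and 36606 in pKO mice (unadjusted p = 0.069, limma). Plin1 had 2360 and 3024 (unadjusted p = 0.083, limma). In RNA from whole tissue, fewer cells of a type and less RNA per cell cannot be told apart.

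Mrap stood lower in pKO than in WT mice. Its gene spans chr16:90738207-90749785 on the plus strand. The WT mice had 1028, 1553, 1251, 1331, 1137 and 1053 normalised tags, and the pKO mice had 506, 748, 968, 761 and 597. Every pKO mouse lay below every WT mouse, and the nearest values of the groups were 1028 and 968. The means were 1225 ± 198 (SD, n = 6) for WT against 716 ± 177 (SD, n = 5) for pKO animals, a WT level 1.71 times that of pKO. On the log2 scale of normalised tags plus 1, used for every difference here, pKO minus WT was −0.80 (SE 0.17, 95% interval −1.16 to −0.43). The spread among WT mice, a coefficient of variation of 16.2%, was 5.71 times what counting alone would give. Ranges without overlap were seen for 1.24% of all genes and 1.43% of those with a mean of at least 50 in a genotype.

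Mc2r, which encodes the receptor that MRAP serves, showed no such separation. It had 923 to 1387 normalised tags in WT mice, with a median of 1182, and 1269, 1209, 1067, 771 and 1017 in pKO mice. The groups overlapped, with 4 of 5 pKO mice inside the WT range. The means were 1178 ± 171 (SD, n = 6) and 1067 ± 194 (SD, n = 5), and the log2 difference of −0.15 had a 95% interval from −0.48 to 0.18. The interval covers both no difference and a moderate decrease.

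As tags are counted per transcript, Mrap and Mc2r could be set against each other within a mouse. WT mice had nearly equal levels, with 1.05 ± 0.13 Mrap tags for each Mc2r tag (SD, n = 6, range 0.902 to 1.25). In pKO mice the ratio was 0.699 ± 0.242 (SD, n = 5), with values of 0.399, 0.619, 0.907, 0.986 and 0.587. Mrap exceeded Mc2r in 4 of 6 WT mice and in 0 of 5 pKO mice, and the 2 highest pKO ratios lay within the WT range. pKO mice 3 and 4 gave those ratios from opposite sides, since mouse 3 had the highest Mrap of the group and mouse 4 the lowest Mc2r.

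**Figure D1:**
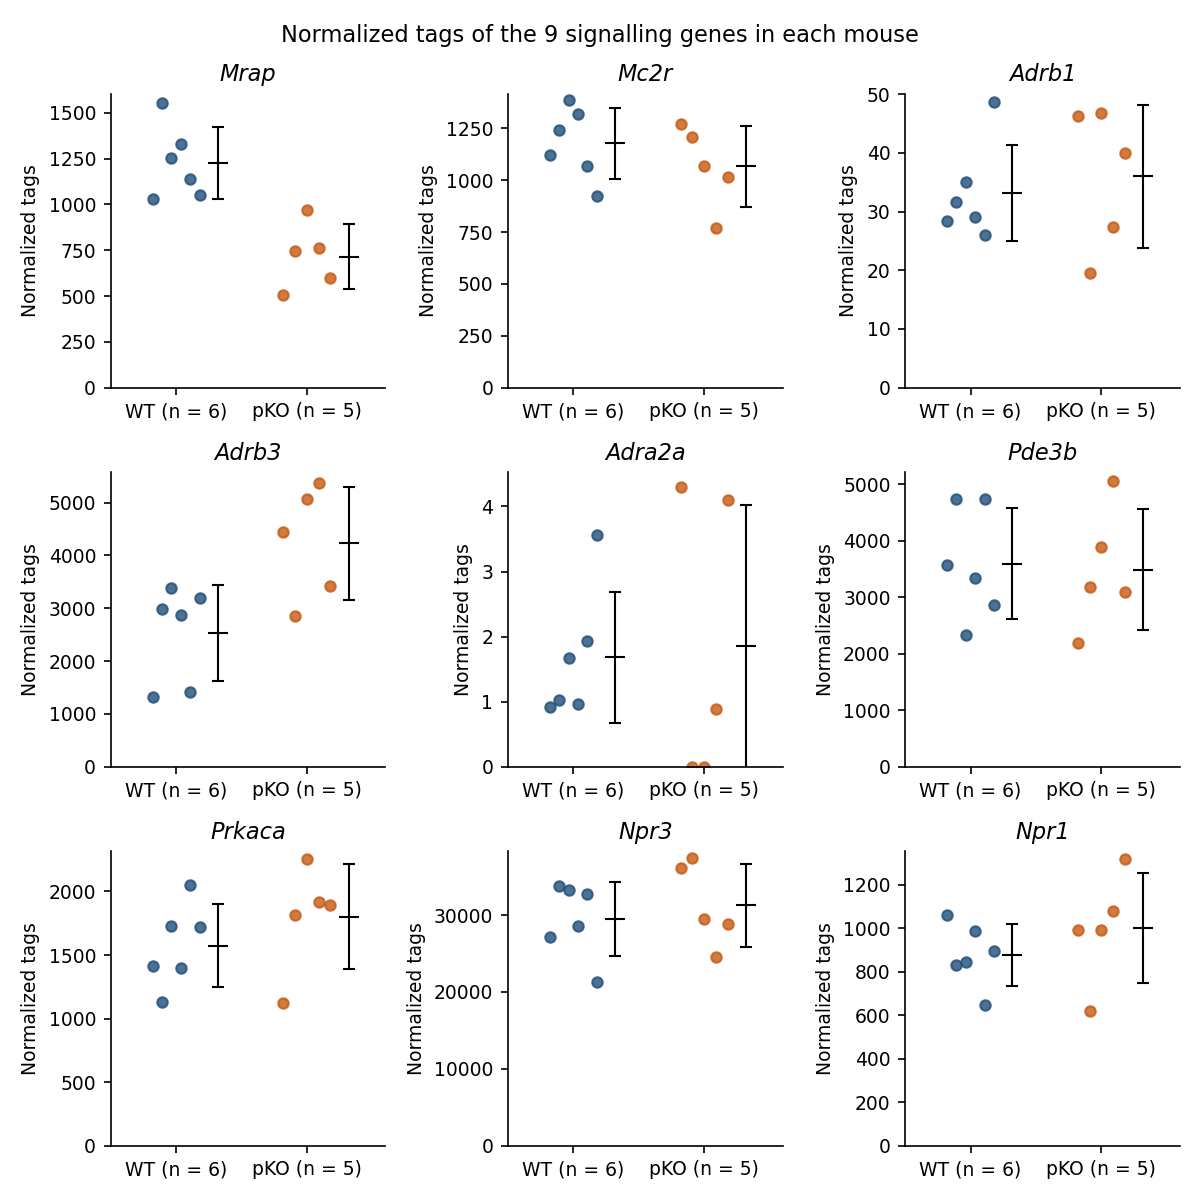
Normalised tags (y axis, from 0) of the 9 genes in each WT (blue, n = 6) and pKO mouse (orange, n = 5), 1 point per mouse, with the mean and SD as a black bar. Mrap is the gene whose groups do not overlap (WT 1028 to 1553, pKO 506 to 968), and Adrb3 overlaps through 1 pKO mouse at 2847.

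Adrb3, which encodes the main beta-adrenergic receptor of rodent white fat, stood higher in pKO mice. It is annotated on the minus strand at chr8:27225776-27250616. The WT mice had 1320, 2977, 3388, 2876, 1421 and 3196 normalised tags, and the pKO mice had 4437, 2847, 5072, 5370 and 3422. WT mice 1 and 5 were well below the other 4, and pKO mouse 2 was the single pKO mouse inside the WT range. The means were 2530 ± 916 (SD, n = 6) and 4229 ± 1074 (SD, n = 5), or 1.67 times the WT level in pKO. The log2 difference was 0.80 (SE 0.27, 95% interval 0.21 to 1.39), the same size as that of Mrap with the opposite sign and a wider interval. WT mice varied by 36.2%, or 18.4 times the counting error, the widest relative spread among the members with a mean of at least 50.

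Adrb1, the beta-adrenergic receptor best known from the heart, was scarce. It had 26.1 to 48.7 normalised tags in WT mice, with a median of 30.4, and 46.4, 19.5, 46.8, 27.4 and 39.9 in pKO mice. These values rest on 17 to 54 tags per library, and the ranges overlapped. The means were 33.2 ± 8.20 (SD, n = 6) and 36.0 ± 12.1 (SD, n = 5), and the interval of the log2 difference ran from −0.48 to 0.62. Adrb3 tags outnumbered Adrb1 tags 76.0 ± 23.2 times among WT mice (SD, n = 6) against 126 ± 45.2 times among pKO mice (SD, n = 5), with overlapping ranges of 46.6 to 98.7 and 85.7 to 196.

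Adra2a, the alpha2-adrenergic receptor that restrains cAMP formation, was at the limit of detection. The 6 WT libraries held 1, 1, 2, 1, 2 and 3 tags and the 5 pKO libraries 5, 0, 0, 1 and 4, which sums to 10 tags in each genotype. Since a count of 0 in a library allows up to 3 tags, no fold is given and no difference was detectable at this depth. Its annotated last NlaIII site, printed above, leaves fewer bases than a full tag.

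The ratio of Mrap to Adrb3 brought the opposite differences of these genes together. It was 0.544 ± 0.202 among WT mice (SD, n = 6, range 0.329 to 0.800) against 0.177 ± 0.0566 among pKO mice (SD, n = 5, range 0.114 to 0.263). Every pKO mouse lay below every WT mouse. The ratio is built from the members with the largest known differences and so adds no support to either.

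**Figure D2:**
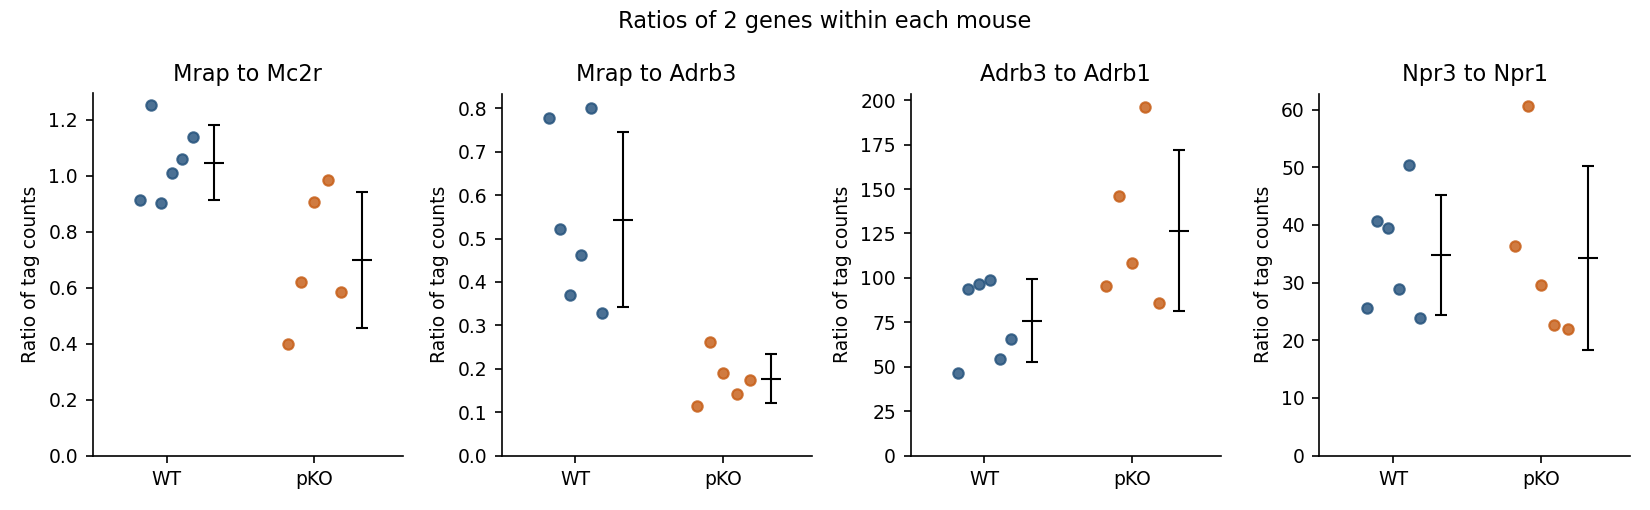
Ratio of the tag counts of 2 genes within a mouse (y axis, from 0) for Mrap to Mc2r, Mrap to Adrb3, Adrb3 to Adrb1 and Npr3 to Npr1, with 1 point per mouse and the mean and SD as a black bar. Mrap to Adrb3 is separate between the groups (WT 0.329 to 0.800, pKO 0.114 to 0.263), while Npr3 to Npr1 is 34.8 in WT and 34.3 in pKO mice on average.

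Downstream of the receptors, Prkaca, which encodes the alpha catalytic subunit of protein kinase A, had 1127 to 2051 normalised tags in WT mice, with a median of 1567. The pKO mice had 1126, 1816, 2258, 1916 and 1890. One pKO mouse fell just under the lowest WT mouse and another exceeded the highest. The means were 1573 ± 324 (SD, n = 6) and 1801 ± 414 (SD, n = 5), with a log2 difference of 0.18 and an interval from −0.22 to 0.59. The gene lies on the plus strand at chr8:83972993-83996443.

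Pde3b encodes the phosphodiesterase through which insulin lowers cAMP in fat cells. It had 2323 to 4743 normalised tags in WT mice, with a median of 3453, and 2193, 3181, 3890, 5062 and 3085 in pKO mice. The pKO mice spread across the whole WT range and past both of its ends. The means of 3594 ± 984 (SD, n = 6) and 3482 ± 1069 (SD, n = 5) differed by −0.05 on the log2 scale, with an interval from −0.54 to 0.44. It lies on the plus strand at chr7:114415281-114539251.

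Npr3, the natriuretic peptide clearance receptor, which removes the peptides without making cGMP, was the most abundant member and rank 33 of all 15453 genes by WT mean. It had 21348 to 33818 normalised tags in WT mice, with a median of 30674, and 36190, 37478, 29451, 24527 and 28893 in pKO mice. pKO mice 1 and 2 exceeded every WT mouse and the other 3 lay inside the WT range. The means were 29490 ± 4835 (SD, n = 6) and 31308 ± 5412 (SD, n = 5), and the log2 difference of 0.09 had an interval from −0.26 to 0.44. Its gene is on the minus strand at chr15:11839896-11907287 and overlaps Gm5144 on the other strand.

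Npr1, the receptor that makes cGMP when natriuretic peptides bind, had 649 to 1062 normalised tags in WT mice, with a median of 871. The pKO mice had 994, 618, 993, 1081 and 1319. Among them, 2 lay inside the WT range and the others fell on both sides of it. The means were 879 ± 143 (SD, n = 6) and 1001 ± 252 (SD, n = 5), with a log2 difference of 0.16 and an interval from −0.23 to 0.56. Clearance receptor tags outnumbered those of Npr1 34.8 ± 10.4 times among WT mice (SD, n = 6) against 34.3 ± 15.9 times among pKO mice (SD, n = 5). Npr1 lies on the minus strand at chr3:90450591-90465866.

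None of the 9 genes passed an adjusted p of 0.1 with a mean of at least 50 in a genotype, the rule used for all genes (limma, adjusted p from 0.20 for Mrap to 0.96 for Pde3b). Of all genes, 0.0324% passed it. At an unadjusted p of at most 0.05 with that mean, 2 of 9 were found, Mrap lower and Adrb3 higher, against 6.81% of all genes (3.7% lower and 3.11% higher) and 10.6% of those with such a mean. edgeR called 0 of 9, and DESeq2 called Mrap (adjusted p = 0.0124), against 0.783% of all genes. The median log2 difference was 0.07 over the 9 genes and −0.0025 over all genes. As the genes were listed with this contrast known, these counts describe them and are not evidence of a difference.

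**Figure D3:**
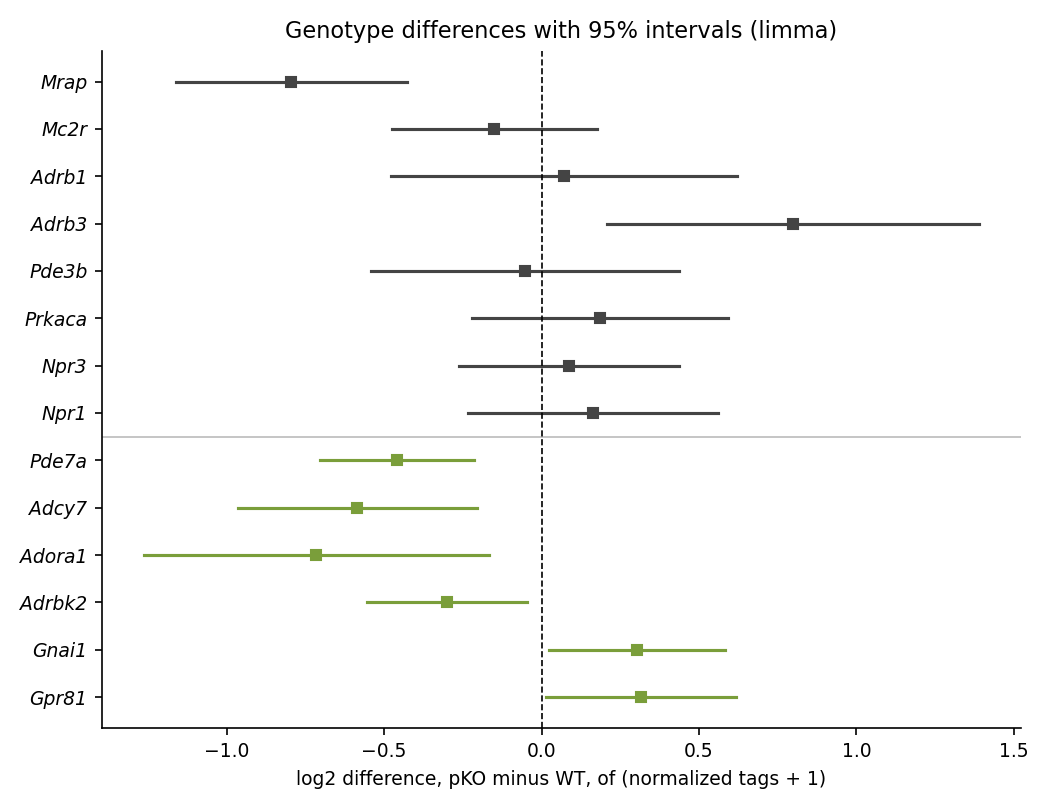
Log2 difference of normalised tags plus 1, pKO minus WT (x axis), with its 95% interval from limma, for the 8 listed genes with 10 or more tags in every library (grey) and the 6 other pathway genes named below (green). The dashed line is no difference. Mrap (−0.80) and Adrb3 (0.80) are the grey intervals that do not cross it.

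A wider set of 131 genes of these pathways was listed by role, and 117 of them were in the tables, 108 without the 9 above. Of the 108, none was called by limma or edgeR and 1 by DESeq2 (Pde7a). At an unadjusted p of at most 0.05 with a mean of at least 50, 4 were lower and 2 were higher in pKO mice, which is near or under the share of all genes at 6.81%. Their adjusted p ran from 0.28 upward (limma), so none of the following differences passed the test. Their median log2 difference was −0.06. Without pKO mouse 2, the count over all 117 genes went from 8 to 13, of which 12 were lower. Of the 117, Adcy7 alone then reached an adjusted p under 0.1 (0.085, limma). Over all genes, calls at the adjusted threshold went from 5 to 91 without that mouse (limma). The share of all genes at the unadjusted threshold without it is not given here, so nothing is read from the 13.

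Among phosphodiesterases, 19 of 20 listed were in the tables and 1 was found at that unadjusted threshold. This was Pde7a, a cAMP-specific phosphodiesterase, with 543 to 760 normalised tags in WT mice (median 691) and 500.5, 469, 483, 515 and 484 in pKO mice. The groups did not overlap, and the pKO mice were close together. The means were 677 ± 75.0 (SD, n = 6) and 490 ± 17.9 (SD, n = 5), with a log2 difference of −0.46 (SE 0.11, limma adjusted p = 0.28, DESeq2 adjusted p = 0.0116). Pde3b was the most abundant gene of the list.

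Of the 9 adenylyl cyclases in the tables, the enzymes that make cAMP, 1 was found at the unadjusted threshold. This was Adcy7, with 316 to 391 normalised tags in WT mice (median 368) and 176, 362, 184, 263 and 261 in pKO mice. Only pKO mouse 2 reached the WT range. The means were 362 ± 27.8 (SD, n = 6) and 249 ± 75.3 (SD, n = 5), with a log2 difference of −0.59 (SE 0.18, adjusted p = 0.37, limma). Adcy6, the most abundant cyclase, had 1022 ± 199 (SD, n = 6) and 848 ± 226 (SD, n = 5).

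Of 15 genes for other receptors that act through stimulatory or inhibitory G proteins in fat cells, 1 was lower and 1 higher at the unadjusted threshold. Adora1, the adenosine A1 receptor, which lowers cAMP, had 875 ± 99.8 normalised tags among WT mice (SD, n = 6) against 581 ± 271 among pKO mice (SD, n = 5; log2 difference −0.72, SE 0.25, adjusted p = 0.42, limma). Gpr81 (Hcar1), the lactate receptor, which also lowers cAMP, had 800 ± 98.1 and 1001 ± 166 (log2 difference 0.32, SE 0.14, adjusted p = 0.51, limma). Both couple to inhibitory G proteins, and their differences had opposite signs. Tshr, the thyrotropin receptor and the most abundant of the list, had 1840 ± 241 (SD, n = 6) and 1900 ± 374 (SD, n = 5).

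Among 15 G proteins and receptor regulators, Gnai1, an inhibitory alpha subunit, had 3578 ± 300 among WT mice (SD, n = 6) against 4455 ± 769 among pKO mice (SD, n = 5; log2 difference 0.30, SE 0.13, adjusted p = 0.49, limma). Adrbk2 (Grk3), a kinase that desensitises receptors, had 328 ± 12.8 and 268 ± 34.7 (log2 difference −0.30, SE 0.12, adjusted p = 0.46, limma). Gnas, the imprinted gene of the stimulatory alpha subunit, was the most abundant of the list. It had 17087 to 31906 normalised tags in WT mice (median 27574), and 23525, 33146, 1622, 6166 and 21003 in pKO mice. pKO mice 3 and 4 were far below every WT mouse, and pKO mouse 2 was above them all, so the mean of 17092 ± 12972 (SD, n = 5) describes no single animal. The log2 difference was −1.24 (SE 0.61). Which Gnas transcripts were counted is not known, and the cause of this spread was not tested.

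The remaining lists held no gene at the unadjusted threshold, with its mean of at least 50, other than those already given. Adra1d, an alpha1-adrenergic receptor gene, fell under that mean and had 6 to 33 tags per library. It had 19.8 ± 5.03 normalised tags among WT mice (SD, n = 6) against 10.6 ± 6.43 among pKO mice (SD, n = 5). Its log2 difference was −0.94 (SE 0.31, unadjusted p = 0.0086, adjusted p = 0.37, limma). In the list of protein kinase A subunits, inhibitors and anchors, 0 of 20 were found, and the most abundant was Prkar2b, the regulatory subunit typical of fat, with 6181 ± 388 among WT mice (SD, n = 6) against 5496 ± 1120 among pKO mice (SD, n = 5). In the natriuretic list 0 of 10 and among cAMP-responsive transcription genes 0 of 17 were found, where Sik2, a kinase held in check by protein kinase A, was the most abundant at 1012 ± 101 (SD, n = 6) and 1241 ± 238 (SD, n = 5). Adra1a, an alpha1-adrenergic receptor gene, had 59.7 ± 3.07 normalised tags among WT mice (SD, n = 6) against 50.6 ± 15.5 among pKO mice (SD, n = 5). Of 10 melanocortin genes listed, 3 were in the tables, and the other receptors of the family were not among them.

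In WT mice the 9 genes, by mean normalised tags, fell in the order Npr3, Pde3b, Adrb3, Prkaca, Mrap, Mc2r, Npr1, Adrb1 and Adra2a. Neighbours were compared within each WT mouse by an exact two-sided sign-flip test over 6 mice, whose smallest possible p is 0.0312. Npr3 exceeded Pde3b in 6 of 6 mice by 3.07 ± 0.39 (SD) on the log2 scale. Mc2r exceeded Npr1 in 6 of 6 by 0.43 ± 0.30, Npr1 exceeded Adrb1 by 4.70 ± 0.36 and Adrb1 exceeded Adra2a by 3.72 ± 0.32, also in 6 of 6. These 4 pairs had the smallest p the test allows, 0.0625 after adjustment over the 8 pairs (exact). The order of the middle genes was not resolved, since Pde3b exceeded Adrb3 in 4 of 6 mice (exact p = 0.22), Adrb3 exceeded Prkaca in 4 of 6 (exact p = 0.125), Prkaca exceeded Mrap in 5 of 6 (exact p = 0.094) and Mrap exceeded Mc2r in 4 of 6 (exact p = 0.50). In pKO mice Adrb3 exceeded Pde3b in 4 of 5. The neighbours were set by the means of the same WT mice. The place of Adra2a rests on 1 to 3 tags per WT library. Its annotated site leaves no room for a full tag, and whether this lowered its count was not tested.

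**Figure D4:**
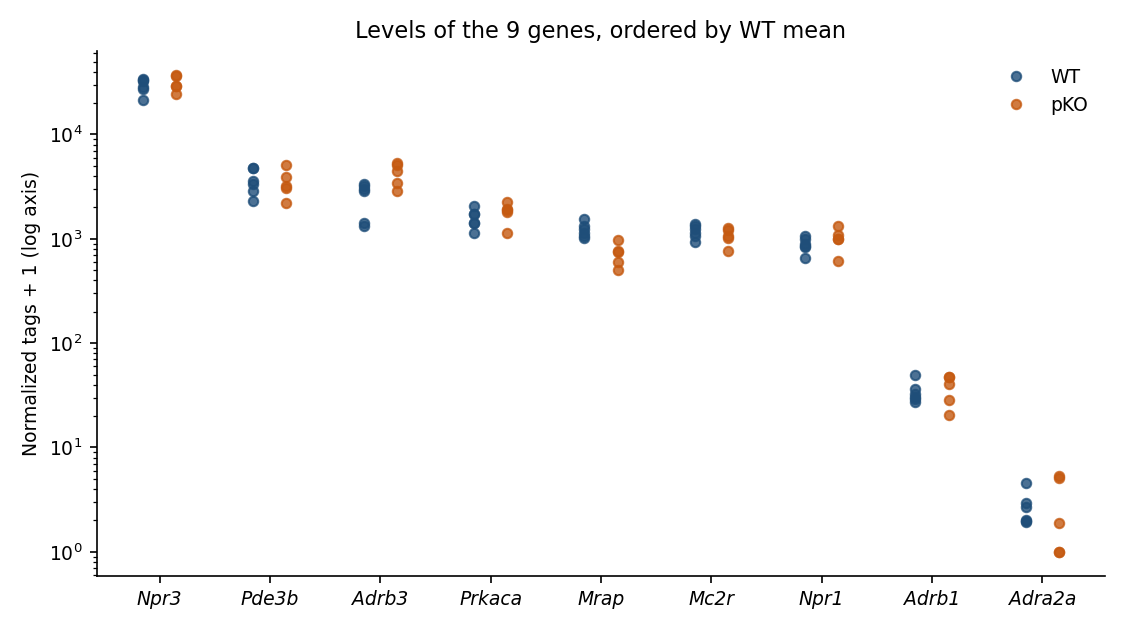
Normalised tags plus 1 (y axis, log scale) of the 9 genes in order of their WT mean (x axis), 1 point per mouse, WT in blue (n = 6) and pKO in orange (n = 5). Npr3 stands alone at 21348 to 37478, 6 genes lie between 506 and 5370, and Adrb1 and Adra2a lie apart below them. The annotated last site of Adra2a leaves fewer bases than a full tag.

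Variation among WT mice was used to ask whether they went together within a genotype. Over 6 WT mice, 17 relations of log2 levels were tested by exact two-sided permutation, Mrap with the other 8 genes and Mest with all 9. None passed an adjusted p of 0.05, with a lowest adjusted p of 0.68 for Pearson's r and 0.28 for Spearman's rho. Mrap and Mc2r had r = 0.66 (exact p = 0.16, adjusted 0.68) and rho = 0.60 (exact p = 0.24, adjusted 0.68), and r = 0.94 without the 2 mice farthest from the Mrap median. Values of r without 2 of the 6 mice rest on few mice. Leaving out 1 mouse gave r of Mrap and Mc2r from 0.55 to 0.81, and scaling by total tags gave 0.58. Mest and Npr3 had r = −0.76 (exact p = 0.064, adjusted 0.68) and rho = −0.94 (exact p = 0.017, adjusted 0.28), and r was −0.99 without the 2 mice farthest from the Mest median. Leaving out 1 mouse gave r of Mest and Npr3 from −0.85 to −0.72, and scaling by total tags gave −0.86. Mest and Mrap had r = −0.55 (exact p = 0.26, adjusted 0.70) and rho = −0.66 (exact p = 0.175, adjusted 0.68), and r was −0.37 without the 2 mice farthest from the Mest median.

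Genes most like Mrap and Adrb3 were found by Pearson's r of log2 levels after subtracting each genotype's mean, over the 11 mice, among 9905 genes with a mean of at least 50. The values share library and scaling, the highest were picked from 9905, and they are a description. How high such values reach by chance over 11 mice was not tested. The 5 most like Mrap were Kctd17 (0.91), Spryd4 (0.91), Psmd7 (0.89), Ccr7 (0.88) and Tmem209 (0.87). The 5 most like Adrb3 were Nynrin (0.86), Surf6 (0.85), Fxyd3 (0.84), Ttc21b (0.83) and Pomgnt1 (0.82). On the same measure Mrap and Mc2r, receptor and partner, had 0.03, while Mc2r and Npr3 had 0.83.

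Markers of other cells were read beside these differences, and their part in them was not tested. Fibroblast and progenitor markers, 5 of 5, summed to 29168 to 38504 for WT mice against 37450 to 45812 for pKO animals. Dcn leads this sum, with means of 21572.5 for WT against 27840.9 for pKO animals. The other 4 did not share a direction. Pdgfra (1001 and 1006) and Col1a1 (4337 and 4234) had similar means, Dpt was somewhat higher in pKO (7214 and 7983), and Pi16 was lower (554 and 370). Mesothelial markers, 6 of 6, summed to 1158 to 1589 for WT mice against 1387 to 2683 for pKO animals. The 9 of 9 macrophage markers summed to 6885 to 9323 in WT and 6076 to 8714 in pKO mice, a sum that C1qa and Mrc1 lead, and 2 of them had an unadjusted p of at most 0.05. Itgam had 338 ± 66.1 normalised tags for WT (SD, n = 6) against 211 ± 67.6 for pKO animals (SD, n = 5; log2 difference −0.72, adjusted p = 0.37, limma), and Itgax 644 ± 260.4 against 340 ± 132 (log2 difference −0.90, adjusted p = 0.44, limma). Emr1, which marks most tissue macrophages, had 856 ± 151 (SD, n = 6) and 865 ± 271 (SD, n = 5). Adrenal cortex, where Mrap and Mc2r are also strongly expressed, was read from 3 of 6 markers in the tables, which summed to only 19.3 to 46.3 in WT and 21.8 to 32.7 in pKO mice. Of the markers in all lists, 0 passed the adjusted test by limma. The count with an unadjusted p of at most 0.05 (limma) was taken here without the minimum mean of 50. It was 0 of 8 for adipocytes, 3 of 6 for mesothelial cells and 1 of 5 for fibroblasts and progenitors. It was 1 each for endothelial, smooth muscle and brown fat markers. The smooth muscle gene was Cnn1 (means 14.7 in WT, 7.62 in pKO) and the brown fat gene Elovl3 (18.4 and 9.41), which fall under that minimum. Of genes that reach it, 10.6% had such a p (limma). No marker list was tested against that share. DESeq2, which called Mrap, also called the mesothelial markers Krt19 (374 ± 81.3 for WT, SD, n = 6, 609.7 ± 77.6 for pKO, SD, n = 5, adjusted p = 0.0179, ranges apart) and Upk1b (499 ± 73.7 for WT, 816 ± 193 for pKO, adjusted p = 0.0211). These markers were named after their values were seen.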

How the data were processed

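Epididymal fat of 6 WT and 5 pKO mice was profiled by SOLiD SAGE. The deposited values are a normalised signal per gene: the authors counted tags and divided each library by its own size factor, and 100% of values could be returned to whole tags (tolerance 0.01). The submitters' processing notes name edgeR 3.2.3 and mm10; the gene annotation used for tag counting is not given in the sources used here. Replicate numbers name mice and do not pair them: same-numbered WT and pKO mice had a mean correlation of deviations of −0.024 (−0.092 to 0.14, 5 pairs).

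Genotypes were compared with limma 3.58.1 (trend, R 4.3.3) on log2 of the deposited value plus 1, two-sided, with Benjamini-Hochberg adjustment over 15453 genes. A call was an adjusted p up to 0.1 with a mean of 50 or more in a genotype. edgeR 4.0.16 (quasi-likelihood) and DESeq2 1.42.0 on the recovered tags, other scalings, pseudocounts of 0.5 and 10, low-value filters, a replicate block and leaving out each mouse were alternatives. The fitting code was tested on simulated data. Exact tests used scipy 1.17.1. Intervals cover the spread between mice, and counts per library cover counting error.

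The 9 genes and all pathway and marker lists were chosen with earlier results of these data known. Named were the 9 genes, Mest, pathway genes with unadjusted p up to 0.05 and a mean from 50 upward (at most 12), the most abundant gene of each list, and the 5 genes most like Mrap and Adrb3. Adra1a, Adra1d, Fabp4, single markers and the marker sums were added to these after their values were seen. Transcript positions and tags came from GENCODE M21 (GRCm38), and the Mrap oligonucleotides from a supplementary table of the study.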

Additional observations from a re-analysis of the deposited data

How the results depend on the processing

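Over 22 alternatives the log2 differences kept their sign for Mrap (−0.91 to −0.68), Adrb3 (0.63 to 0.93), Mc2r (−0.22 to −0.04), Prkaca (0.09 to 0.35) and Npr1 (0.05 to 0.33). They changed sign in at least 1 alternative for Adrb1, Adra2a, Pde3b (−0.20 to 0.10) and Npr3 (−0.003 to 0.17). Mrap passed an adjusted p of 0.1 in 1 of 22 alternatives, DESeq2 (adjusted p from 0.0124 to 0.53 over the 22). Mest was called in all 22 (−4.13 to −3.75). Of all genes, 5 were called by limma, 121 by DESeq2, 11 among genes with 10 tags in every library and 9 among genes with a mean of at least 50. Leaving out 1 mouse gave 3 to 91 calls, with 91 without pKO mouse 2 and 12 without WT mouse 5. Of the pathway genes, 0 were called by limma, 2 by DESeq2 (Mrap and Pde7a), and 0 to 1 when 1 mouse was left out (1, Adcy7, without pKO mouse 2). At the unadjusted threshold 8 were found, and 6 to 13 when 1 mouse was left out. The share of all genes at that threshold in the fits without a mouse is not given here. Of the 9 genes, 0 were called by limma and 1 by DESeq2. The cause of these shifts was not tested.

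With a replicate block over the pairing of equal numbers, 1 gene was called. Mrap then had a log2 difference of −0.84 (adjusted p = 0.53, limma) and Adrb3 one of 0.89 (adjusted p = 0.60, limma). Adrb1 and Adra2a rest on few tags, and Adra2a is removed by both low-value filters and Adrb1 by the mean filter.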
